A study of Arabidopsis thaliana with 12 samples.

Results

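CCL and GI are genes tied to the circadian clock of Arabidopsis thaliana, and both were followed in leaves of the accession Ws-2 and of the line ape2. They were found by their names in the array annotation. Each has 1 probe set, CCL (CCR-like, locus AT3G26740) 257832_at and GI (GIGANTEA, locus AT1G22770) 264211_at, so they are 2 of the 22810 probe sets on the array. Both had signals over the limit for dim probe sets, 20, on all 12 arrays. The filter asked for this on 3 or more arrays and kept 16076 probe sets. The genes were chosen by their differences between ape2 and Ws-2, which were known from earlier results of these arrays. Their values are therefore a description without a test.

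The arrays were hybridised with total RNA from unshaded mature rosette leaves at developmental stage 3.7. Ws-2 served as the wild type, and ape2 carries a T-DNA insert in the Ws-2 background. The series title speaks of a TPT mutant. TPT is the carrier that exports triose phosphates from the chloroplast and takes up phosphate. Both genotypes were sampled in a condition named L and in one named H, giving the groups Ws-2 L, Ws-2 H, ape2 L and ape2 H with 3 arrays each. The labels do not state the meaning of L and H, the time of day of harvest, the growth regime or the pooling of plants. Nothing in the labels says that the 3 arrays of a group came from separate plants, so the spread between them may be technical. The TPT transcript was not analysed here, so it gave no check of the genotype labels.

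The plant clock is a set of transcriptional loops in which morning-phased and evening-phased genes repress and activate each other, so the level of a clock transcript depends on the time of day and on light and sugar. GI is an evening-phased gene of this network. Its protein stabilises the F-box protein ZTL in the light and, together with FKF1, removes repressors of flowering genes, which couples the clock to day length. CCL is an output of the clock. Its mRNA is short-lived, and its stability changes over the day under clock control. The CCL protein resembles LIR1, a light-induced protein first described in rice that helps to hold ferredoxin-NADP reductase, the last enzyme of photosynthetic electron transport, at the thylakoid.

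CCL was high in all 6 ape2 arrays and low in all 6 Ws-2 arrays. The signal, a linear MAS5 intensity scaled so that the trimmed mean of an array is 100, was 332.7, 283.0 and 355.4 on the Ws-2 L arrays and 268.8, 201.4 and 208.1 on the Ws-2 H arrays. On the ape2 L arrays it was 707.5, 685.4 and 638.5, and on the ape2 H arrays 601.8, 709.2 and 600.5. The lowest ape2 array stood 245 units above the highest Ws-2 array, while the arrays of ape2 L and ape2 H overlapped.

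GI ran the other way between the genotypes and over a much narrower range. Its signal was 219.8, 207.3 and 202.8 in Ws-2 L and 182.8, 179.1 and 184.5 in Ws-2 H. It was 165.8, 160.2 and 159.98 in ape2 L and 132.4, 124.9 and 157.2 in ape2 H. Every Ws-2 array was above every ape2 array, and within each genotype every L array was above every H array. In these leaf extracts a lower signal can come from fewer cells with the transcript or from less of it per cell, which cannot be told apart.

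**Figure D1:**
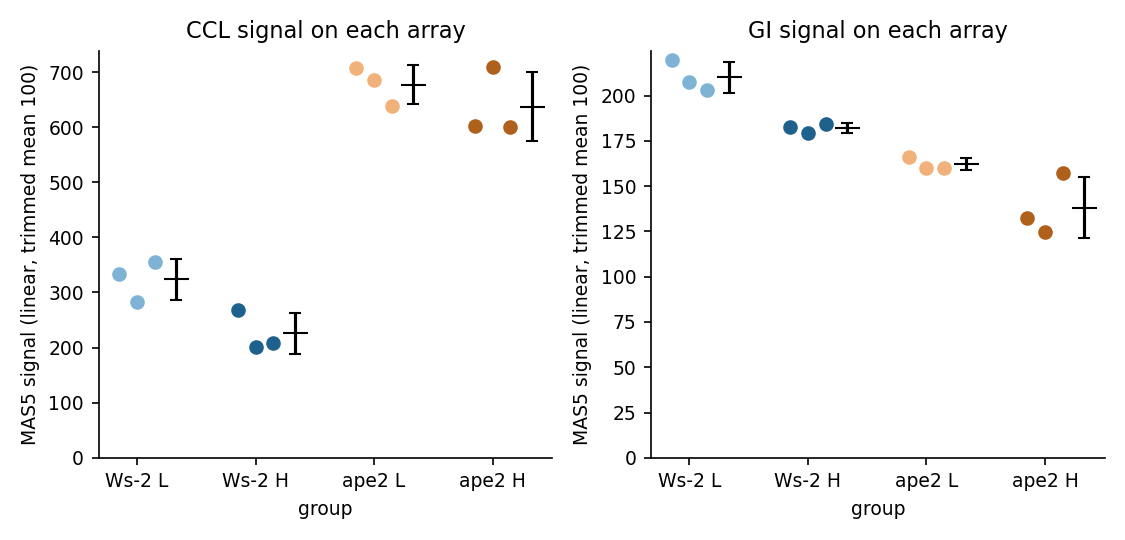
MAS5 signal (linear scale from 0) of CCL on the left and GI on the right, by group; each dot is 1 array and the bar beside it is the mean ± SD of 3 arrays. CCL lies between 201.4 and 355.4 in Ws-2 and between 600.5 and 709.2 in ape2, and GI steps down from Ws-2 L through Ws-2 H and ape2 L to ape2 H.

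The order of the CCL levels from high to low was ape2 L at 677 ± 35.2, ape2 H at 637 ± 62.4, Ws-2 L at 324 ± 37.0 and Ws-2 H at 226 ± 37.1 (mean signal ± SD, n = 3). The neighbours ape2 L and ape2 H did not differ beyond their spread. The step from ape2 H to Ws-2 L was 1.97-fold in mean signal, and that from Ws-2 L to Ws-2 H was 1.43-fold, with 14.2 units between the closest arrays. Relative to the mean, the arrays varied least in ape2 L (coefficient of variation 5.20%) and most in Ws-2 H (16.4%).

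For GI the order was Ws-2 L at 210 ± 8.81, Ws-2 H at 182 ± 2.76, ape2 L at 162 ± 3.29 and ape2 H at 138 ± 16.9 (mean signal ± SD, n = 3). No neighbours overlapped, but the steps were small, 1.15-fold, 1.12-fold and 1.17-fold in mean signal. The closest arrays were 18.3, 13.3 and 2.80 units apart in the same order, and the last of these gaps is well inside the SD of ape2 H, where replicate 3 stood above the other two. Over the 16076 probe sets 0.896% had no overlap between any of the 4 groups, and 0.18% were also in the order seen for GI. The order of GI was noted after its values were seen.

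The comparison of ape2 with Ws-2 asks how leaf transcripts differ in the insertion line, in a series whose title speaks of a TPT mutant. In condition L the difference of CCL on the scale of log2(signal + 10) was 1.05 ± 0.11 (SE), which is 2.09-fold in mean signal. In condition H it was 1.46 ± 0.11, or 2.82-fold in mean signal. GI differed by -0.35 ± 0.08 in condition L and by -0.38 ± 0.08 in condition H on the log2 scale, so ape2 held 0.772 and 0.759 of the mean signal of Ws-2. Both genes had groups without overlap in both conditions, as did 26.5% of all tested probe sets in condition L and 28.4% in condition H.

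Set against the whole array, CCL lay nearer to the end of its direction than GI. In condition L 77 of the 16076 probe sets had a log2 difference at least as high as that of CCL, itself included, and in condition H 38 did. For GI, 1025 were at least as low in condition L and 1084 in condition H. The sizes passed by 5% of all tested probe sets in either direction were 0.57 in condition L and 0.59 in condition H on the log2 scale. The spread of GI within groups, pooled over the 4 groups, was 0.09 on the log2 scale, that of CCL 0.16, and the median over all tested probe sets 0.15.

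**Figure D2:**
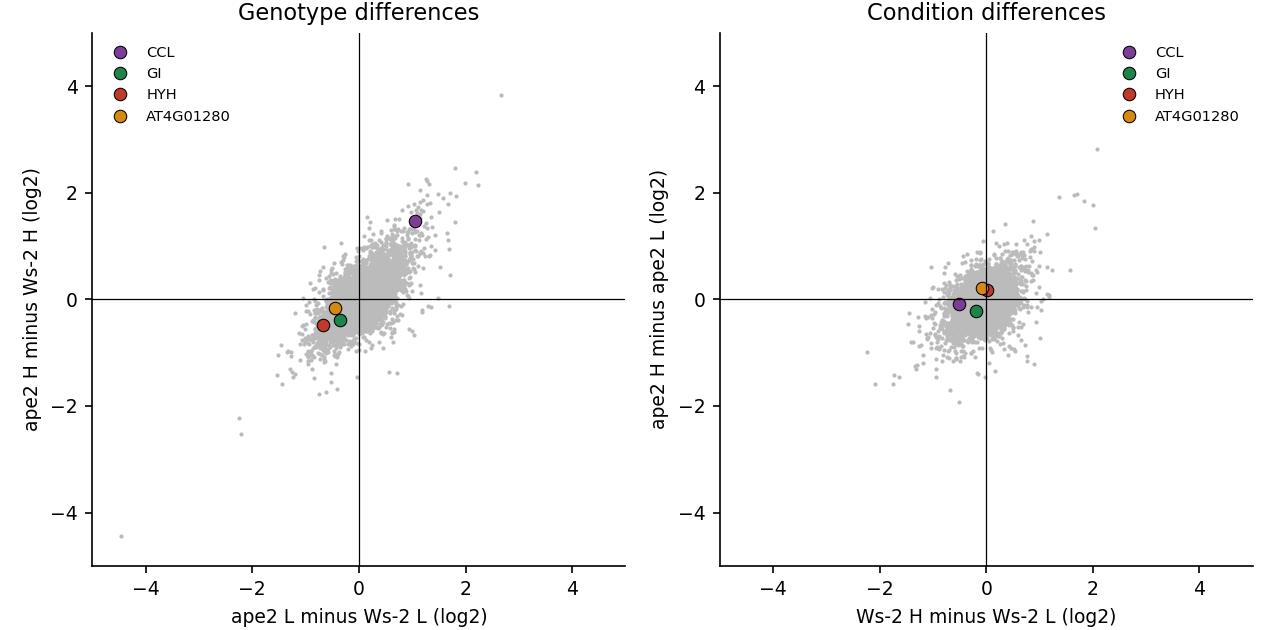
Log2 differences of all 16076 tested probe sets (grey), with condition L on the x axis and condition H on the y axis for ape2 minus Ws-2 on the left, and Ws-2 on the x axis and ape2 on the y axis for H minus L on the right. In the left panel CCL sits towards the upper end of the cloud (1.05 and 1.46), GI well inside it (-0.35 and -0.38), and HYH and AT4G01280 among negative values.

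The comparison of H with L uses the same arrays, and its differences were smaller than those between the genotypes for both genes. In Ws-2 the log2 difference of CCL was -0.50 ± 0.11 (SE), with no overlap between the groups, and 384 of the 16076 probe sets were at least as low. In ape2 it was -0.09 ± 0.11, within the spread of the arrays. GI differed by -0.19 ± 0.08 in Ws-2 and by -0.22 ± 0.08 in ape2, and its L and H arrays did not overlap in either genotype. Groups without overlap were found for 19.8% of all tested probe sets in Ws-2 and for 21.8% in ape2.

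The genotype difference of CCL was larger in H than in L, with Ws-2 lower in H and ape2 about level. The difference of the differences was 0.41 ± 0.15 (SE, log2 scale) for CCL and -0.03 ± 0.12 for GI. These are given without a test. Of the 16076 probe sets, 602 had a difference of the differences at least as high as that of CCL. The size passed by 5% of them in either direction was 0.51, above that of CCL. By limma, 0.0187% of the probe sets, 3 in number, passed an adjusted p of 0.05 in this contrast. The pattern of CCL, with ape2 above Ws-2 in both conditions and Ws-2 H below Ws-2 L without overlap, was shared by 1.71% of the tested probe sets, and it too was noted after the values were seen.

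The 3'/5' ratios of control transcripts, a sign of RNA integrity, were highest in Ws-2 L and lowest in ape2 H, as GI was. The GAPDH ratio averaged 2.05 ± 0.22 for Ws-2 L and 1.86 ± 0.26 for Ws-2 H, against 1.87 ± 0.20 for ape2 L and 1.77 ± 0.05 for ape2 H (SD, n = 3). The actin ratio averaged 4.25 ± 0.14 and 4.14 ± 0.72 for the Ws-2 groups and 4.03 ± 0.43 and 3.70 ± 0.45 for the ape2 groups, L before H. Over the 12 arrays the GAPDH ratio ran from 1.64 to 2.29 and the actin ratio from 3.20 to 4.61. For both transcripts the ranges of Ws-2 L and ape2 H did not overlap while all other ranges did. The part of these ratios in the differences of GI, or of any other gene, was not tested.

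Among other genes of the clock and of light signalling, few were measured here, and most of those lay near 0. The lists hold 100 genes in 7 groups, and 9 of them have a probe set annotated to that gene alone. Probe sets annotated to several genes were not used for the lists. The list of core evening genes, which holds ZTL and FKF1, and that of clock outputs have no single-gene probe set. They were not analysed here. Of the 14 genes on the list of GI partners and photoperiod, SPY has a single-gene probe set. COR27 and AT4G33980, on the list of clock accessory genes, had signals up to 13.0 and 19.9 and fell under the filter. That left 7 genes for testing.

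HYH fell in ape2 in both conditions. It encodes a bZIP transcription factor, the close relative of HY5, that promotes responses to light, and it is the measured member of the 23 genes on the list of light receptors and signalling. Its signal was 331.0, 300.1 and 351.5 in Ws-2 L against 191.4, 201.6 and 215.2 in ape2 L. In condition H it was 306.4, 347.2 and 334.9 in Ws-2 against 262.0, 207.2 and 227.7 in ape2. The groups did not overlap in either condition. The log2 difference by limma was -0.66 ± 0.09 in condition L (SE, adjusted p = 2.51e-04) and -0.49 ± 0.09 in condition H (adjusted p = 0.00233).

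AT4G01280, placed by its locus on the list of morning clock genes, fell in ape2 in condition L. Its signal was 101.4, 88.99 and 129.3 in Ws-2 L and 77.3, 78.1 and 69.9 in ape2 L, with no overlap (-0.44 ± 0.12 by limma, adjusted p = 0.0292). The call was lost without replicate 1 of Ws-2 L (adjusted p = 0.0556) or replicate 3 (0.141), and without replicate 1 of ape2 L (0.0587) or replicate 3 (0.0983). Without replicate 3 of Ws-2 L the difference was -0.30. In condition H its difference was -0.15 ± 0.12 (adjusted p = 0.505), and the difference between the conditions, 0.29 ± 0.17, had an adjusted p of 0.734. The same list holds AT5G52660, whose differences between the genotypes were 0.14 ± 0.09 in L and 0.02 ± 0.09 in H.

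Over the 7 tested list genes, 0 rose and 2 fell in condition L, beside 9.8% of all tested probe sets that passed in either direction. In condition H 0 rose and 1 fell, beside 10.5%. The median log2 difference of the 7 genes was 0.10 in L and -0.02 in H, and that of all tested probe sets 0.01 and -0.01. The genes that did not pass ranged from 0.04 to 0.14 in L (adjusted p from 0.397 to 0.889) and from -0.15 to 0.04 in H (0.505 to 0.949). They include TIC and XCT, which are needed for normal clock timing, SPY, a glycosyltransferase that binds GI and restrains gibberellin signalling, and TROL, which anchors ferredoxin-NADP reductase at the thylakoid. TROL, the measured member of the 4 genes listed as partners of the CCL protein, was at 0.11 ± 0.10 in L and 0.04 ± 0.10 in H.

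Between the conditions limma called 0 of the 7 genes in Ws-2 and 0 in ape2, where 2.95% and 4.03% of all tested probe sets passed. At an unadjusted p under 0.05 there were 0 genes in Ws-2 and 1 in ape2, namely SPY at -0.22 ± 0.10 (adjusted p = 0.248). The median of the 7 genes was 0.01 in Ws-2 and -0.01 in ape2. In the contrast of the differences limma called 0 of the 7, with 0 at an unadjusted p under 0.05.

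**Figure D3:**
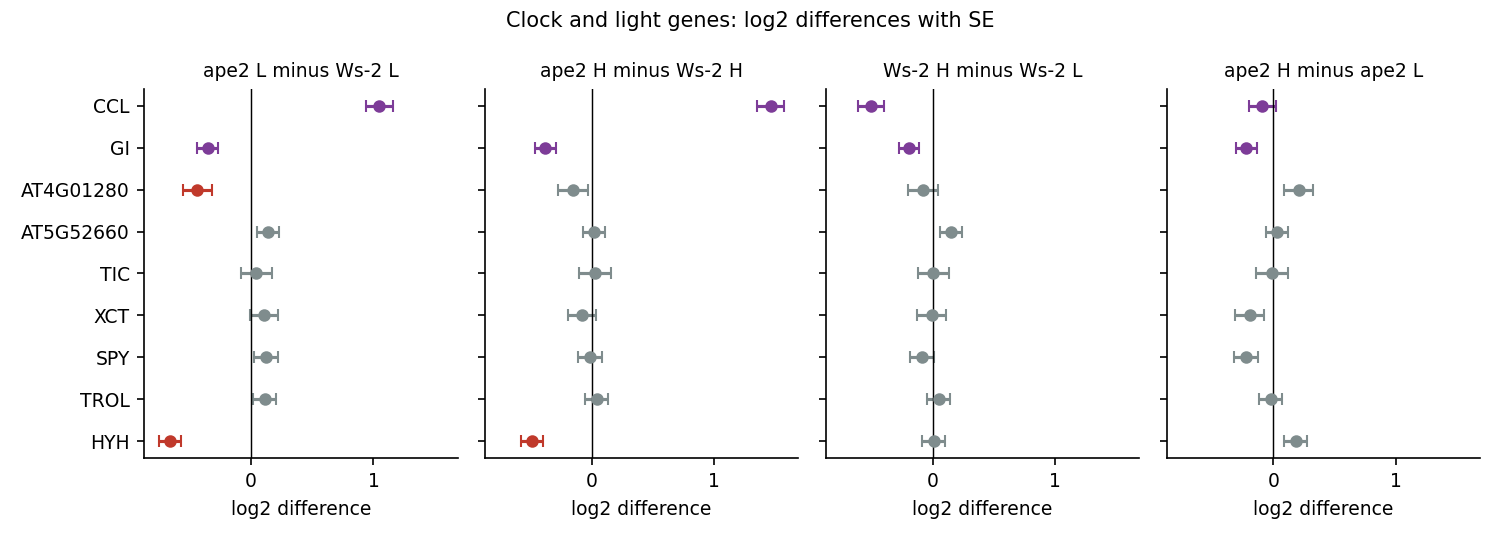
Log2 differences with SE (bars) of CCL, GI and the 7 tested list genes in the 4 comparisons named above the panels, from the fit to 12 arrays; purple marks the genes described without a test, red those that passed an adjusted p of 0.05 and grey the others. HYH is red in both genotype panels (-0.66 and -0.49) and AT4G01280 in the first (-0.44).

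The profiles most like that of CCL were those of genes known here by their locus codes. Likeness was the root mean square difference between log2(signal + 10) profiles over the 12 arrays, each centred on its own mean, among 5112 named probe sets with a mean signal of 50 or more. The nearest was AT3G47160 at 0.15, where the median over all compared was 0.69, followed by AT3G13062 and AT5G11070 at 0.17, AT1G30260 at 0.18, AT1G27290 at 0.20 and AT1G56220 at 0.21. The mean signal of AT3G47160 was 49.5 ± 5.46 and 38.9 ± 2.83 in L and H of Ws-2 and 108 ± 10.7 and 106 ± 9.96 in L and H of ape2 (SD, n = 3). Like CCL, all 6 had a lower mean in Ws-2 H than in Ws-2 L. In ape2 their means split, with AT3G13062 and AT1G30260 higher in H. AT3G47160 (108 and 106 in L and H) and AT5G11070 (167 and 165) were about level. AT1G27290 was lower in H, from 208 ± 43.1 to 185 ± 19.6, and so was AT1G56220, from 390 ± 21.0 to 265 ± 16.5. The arrays of AT3G13062 and of AT1G27290 overlapped between L and H in ape2 and also in Ws-2, where those of CCL did not. The 6 genes were chosen for their likeness to CCL, so their values are a description.

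The profiles nearest to GI lay closer to it than those nearest to CCL, as the small range of GI allows. AT1G30690 was at 0.07, TET3, a tetraspanin of the plasma membrane, at 0.08, AT5G02160 and AT5G01090 at 0.08, and BIM1, a bHLH partner of the brassinosteroid factor BES1, and AT5G02480 at 0.09, where the median over all compared was 0.27. The mean signal of TET3 was 431 ± 14.9 and 371 ± 12.4 in L and H of Ws-2 and 323 ± 37.2 and 275 ± 22.1 in L and H of ape2. For BIM1 the means were 69.3 ± 4.69, 58.0 ± 1.50, 44.3 ± 1.89 and 42.0 ± 4.35 in the same order. All 6 had the group means of GI's order, but of these AT5G02160 alone held it without overlap between groups. For TET3 and BIM1 the arrays of ape2 L and ape2 H overlapped. These genes were chosen for their likeness, so their values are a description.

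**Figure D4:**
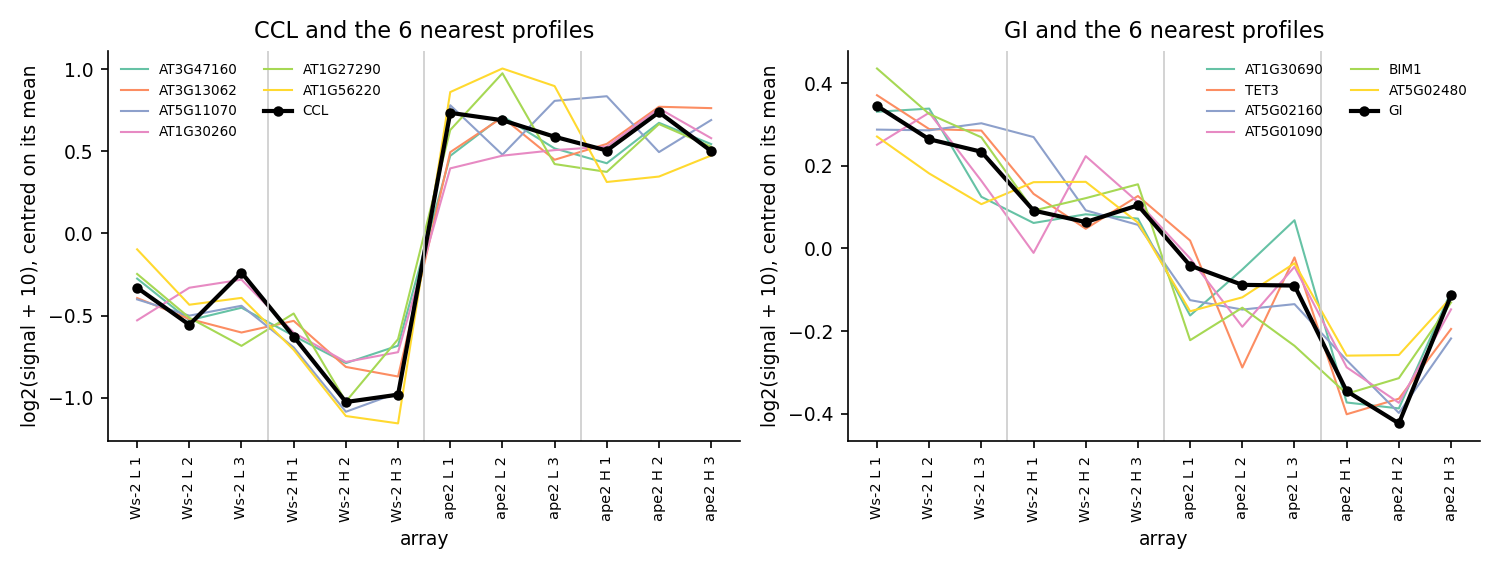
Centred log2(signal + 10) on the 12 arrays for CCL (left, black) and GI (right, black) with the 6 nearest profiles of each in colour; grey lines part the groups. The CCL profiles step up between the Ws-2 and ape2 arrays, and the GI profiles step down over the 4 groups with replicate 3 of ape2 H above the other two for GI.

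The arrays as a whole were alike. Median signals ran from 36.2 to 40.1, and correlations of log2 signals ran from 0.979 to 0.986 within groups and from 0.968 to 0.984 between them. Of the markers fixed for cell types, 5 of 16 have a single-gene probe set in the array annotation. The leaf mesophyll genes RCA and PRK, both of photosynthetic carbon fixation, had signals of 3617 to 4842 and of 3430 to 4492 over the arrays, while EXPA7, an expansin of root hairs, ran from 12.3 to 26.8. RCA and PRK had differences between the genotypes no lower than -0.18 on the log2 scale. The guard cell gene FMA was at 0.08 ± 0.14 in L and 0.25 ± 0.14 in H (SE, adjusted p = 0.314 by limma in H). The dividing cell gene AUR1 was at 0.09 ± 0.11 in L and 0.01 ± 0.11 in H. By limma 0 of the 5 markers were called in any of the 5 contrasts. The lowest adjusted p was 0.252, in condition L, and 0 markers had an unadjusted p under 0.05.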

How the data were processed

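Total RNA of 12 samples was measured on single-colour oligonucleotide arrays. The deposited values are linear signal intensities, which the authors computed with MAS5 according to the submitters' processing notes; its version is not given in the sources used here. Each deposited column has a 2% trimmed mean of 100. MAS5 subtracts mismatch signal, which makes dim values noisy, and a change shared by most transcripts would be scaled away.

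Arrays were rescaled to a trimmed mean of 100 and 64 control probe sets left out. Genes were named from the platform annotation through gene identifiers (13513 probe sets with 1 gene, of which 13436 matched RefSeq, 503 with several, 8730 with none). Probe sets with a signal of at least 20 on 3 or more arrays were tested on log2(signal + 10) in 1 model of 4 group means with limma 3.58.1 in R 4.3.3 (trended, robust prior). Tests were two-sided with Benjamini-Hochberg adjustment over all 16076 probe sets, and called at 0.05. The model was tested on simulated data. Array number limits precision, and fold changes of dim genes are understated.

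The members, lists, tests, alternatives and rule for named genes were chosen with earlier results of these data known. The rule names CCL, GI, up to 8 called genes per list and the 6 nearest profiles; genes not called are named with their values. Alternatives were other offsets, filters, normalizations, priors, array weights, only the groups compared, a replicate block and leaving out each array. No sequences are shown.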

Additional observations from a re-analysis of the deposited data

How the results depend on the processing

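Under the alternatives run for CCL and GI (offsets of 1 and 32, quantile normalization, no rescaling, array weights, only the groups compared and the replicate block), CCL stayed between 1.0 and 1.07 on the log2 scale for the genotypes in L, 1.38 and 1.50 in H, -0.52 and -0.47 for the conditions in Ws-2 and -0.12 and -0.09 in ape2. GI stayed between -0.37 and -0.32, -0.40 and -0.34, -0.20 and -0.18, and -0.23 and -0.19 in the same order. The replicate block and the fit to only the groups compared cannot change these differences in this balanced design. Leaving out the rescaling hardly can, since the deposited trimmed means were already 100. Without each array in turn the ranges were 0.96 to 1.12, 1.38 to 1.59, -0.63 to -0.43 and -0.17 to -0.05 for CCL, and -0.38 to -0.32, -0.47 to -0.32, -0.22 to -0.16 and -0.31 to -0.16 for GI. The lower ends for GI in H and in ape2 came without replicate 3 of ape2 H. The difference of the differences ranged from 0.34 to 0.54 for CCL and from -0.12 to 0.038 for GI.

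The count of 2 called list genes in L ranged from 1 to 2 without each array, and was 1 with no filter, with a constant prior and with only the groups compared, where AT4G01280 lost its call (adjusted p = 0.0516, 0.0527 and 0.0613). HYH was called in both conditions under every alternative run (adjusted p up to 0.00266 in L and 0.0111 in H) and without each array (up to 0.00234 and 0.0144). The count was 1 in H and 0 in the other contrasts under every alternative run. With the replicate block the counts were 2 in L and 1 in H. The differences of CCL (1.05 and 1.46) and GI (-0.35 and -0.38) stay the same by design, as each group holds every replicate number once. The numbers were not treated as pairs, since 3 of 18 same-numbered pairs of arrays had correlated deviations over 0.1 (range -0.28 to 0.37). Of the 6 profiles nearest to CCL 2 remained when profiles were also divided by their SD, and 4 to 6 of those nearest to GI remained under the alternatives run. Precision is limited by 3 arrays a group, and COR27 and AT4G33980 were too dim to compare.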
